A study of Mus musculus with 17 samples.

Results

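The genes examined were 44 genes of DNA replication and mitosis, picked by name and followed through the H3.3 ChIP-seq regions of newborn mouse lens. Each gene was taken as its GENCODE vM21 gene body on mm10 plus 1 kb on each side, called the gene window, and all 44 were found among the 21938 protein-coding genes of the assembled chromosomes. By role, 11 are origin licensing genes, 10 work at the replication fork, 3 supply nucleotides, 7 are cyclins, their kinases and E2f1, and 13 act in mitosis. Lenses of CD-1 mice were microdissected into epithelium and fibers, and chromatin precipitated with an antibody against H3.3 was sequenced in 2 epithelium and 2 fiber libraries. The library titles give postnatal day 1 and the labels give 150 pooled lenses per sample, while the study's methods give 200 lenses at postnatal day 0.5. No genotype or treatment is named for any group, and each library is a pool over many animals.

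H3.3 is a histone H3 variant that chaperones place into chromatin throughout the cell cycle, outside DNA replication, whereas canonical H3 is laid down at the fork. In the lens, the anterior epithelium holds the dividing cells, and fibers leave the cell cycle as they differentiate at the equator. In G1 the origin recognition complex, Cdc6 and Cdt1 load the Mcm2 to Mcm7 helicase onto origins. Cyclin E with Cdk2 then starts S phase, and E2F factors drive transcription of many of these genes, while genes needed later, in G2 and mitosis, are commonly controlled through CHR elements and CCAAT boxes. The comparison asks how the H3.3 regions over these genes differ between a dividing and a postmitotic compartment.

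The regions are SICER islands, runs of neighbouring 200 bp windows with more H3.3 reads than background, and each carries its number of reads. The libraries differed in size before any gene was looked at. The epithelium libraries held 10389 and 14434 islands with 1331369 and 1430373 reads in them, and the fiber libraries 27059 and 35940 islands with 5041885 and 5359085 reads. All 7 fiber markers checked carried an island in both fiber libraries, Lim2 and Bfsp1 in fibers alone, but 4 and 5 of the 7 also carried one in the epithelium libraries. Of 5 epithelium markers, 3 and 4 had an island in epithelium and 3 and 5 in fibers, so an island at a marker did not separate the compartments. Crx, Rpe65, Tyr, Krt12, Krt14, Ptprc and Hbb-bs had none in any library, and islands at the other markers of retina, skin and vessels covered at most 38.5% of a window.

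The replication and mitosis genes carried islands more often in fibers than in epithelium, and so did genes at large. An island lay in the window of 16 and 13 of the 44 members in the epithelium libraries, against 27.1% and 31.8% of all protein-coding genes. In the fiber libraries it was 27 and 30 members, against 51.7% and 57.6% of all genes. The shares of members were therefore 33.0% ± 4.82 (SD, n = 2) in epithelium and 64.8% ± 4.82 in fibers, and the 2 groups did not overlap. The difference of 31.8 percentage points had an exact two-sided permutation p of 0.33, which is the smallest that 2 libraries against 2 allow. Over all genes the shares were 29.5% ± 3.29 and 54.7% ± 4.17. With the same number of islands taken from every library, the 10389 with the most reads, the numbers were 16 and 13 members in epithelium and 13 and 16 in fibers, and the difference was 0. The same islands reached 27.1% and 26.3% of all genes in epithelium and 32.1% and 31.1% in fibers.

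**Figure D1:**
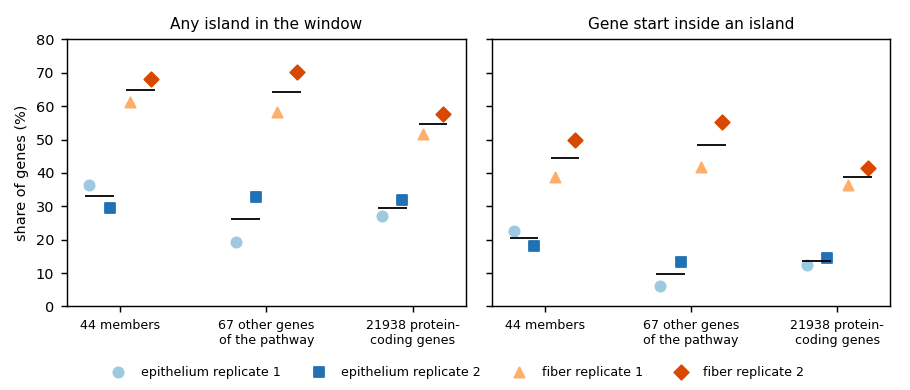
Share of genes (%, vertical axes) with an H3.3 island in the window (left) or with the gene start inside an island (right), for the 44 members, 67 other genes of the same pathways and 21938 protein-coding genes. Each point is 1 library and black lines are means of 2 libraries; both fiber libraries lie above both epithelium libraries in every set.

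The share of members divided by the share of all genes was 1.34 and 0.929 in the epithelium libraries and 1.19 and 1.18 in the fiber libraries. Its difference, 0.0499, was smaller than the spread between the epithelium libraries (exact permutation p = 1), and it turned negative under several settings given below. Counted by pattern, 9 members had an island in all 4 libraries, against 20.4% of all genes, and 9 had none in any, against 38.1%. Another 9 had islands in both fiber libraries and in neither epithelium library, against 15.6% of genes. No member showed the opposite pattern, islands in both epithelium and neither fiber library, which 0.223% of genes showed. Top2a alone had an island in an epithelium library and none in fibers, against 1.62% of genes.

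Islands took up more of the members' windows in fibers as well. In such bulk chromatin, H3.3 in more cells, more H3.3 per cell and the larger number of islands in the fiber libraries cannot be told apart. Summed over the 44 windows, islands covered 9.40% and 6.32% of the sequence in epithelium and 19.8% and 16.3% in fibers. The means were 7.86% ± 2.18 and 18.1% ± 2.46 (SD, n = 2 each), a difference of 10.2 percentage points that was larger than the spread between replicates (exact permutation p = 0.33). Member genes run from 4153 to 45457 bp. Protein-coding genes in that range of lengths had means of 7.34% in epithelium and 22.2% in fibers. With both restricted to the middle 50% of member lengths, members had means of 8.14% and 26.0%, and protein-coding genes 8.31% and 23.9%. Whether members were covered less than other genes in fibers thus depended on the match in length. For 16 members the covered share was higher in both fiber libraries than in both epithelium libraries, against 40.4% of all genes, and for 0 members it was lower in both, against 0.729% of genes. With equal numbers of islands per library these counts were 5 and 1 when islands were ranked by reads, and 4 and 4 when ranked by reads per kb. Mcm7 and E2f1 were covered more in fibers under both rankings, and Aurkb was covered less in fibers under both. Aurka was covered more in fibers when islands were ranked by reads and less when ranked by reads per kb.

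Where an island was present, its read density differed between compartments by less than the spread between the fiber libraries. Density is known only inside called islands, which must exceed background, and the members with an island differ between libraries. Similar densities therefore do not measure equal H3.3 over these genes. Over all protein-coding genes the fiber to epithelium ratio was 0.986. The islands at members held 28.5 and 29.1 reads per kb in epithelium and 28.9 and 30.5 in fibers, summed over islands. The means, 28.8 ± 0.434 and 29.7 ± 1.13, gave a ratio of 1.03 (exact permutation p = 0.67), and the epithelium and fiber libraries overlapped. Island medians at members, 28.1, 29.2, 27.6 and 29.6 reads per kb, sat close to the medians of all islands in the same libraries, 28.3, 28.1, 27.4 and 27.5. The densest island at a member lay over the start of Pcna in fiber replicate 2, with 46.4 reads per kb, and the sparsest over Orc6 in fiber replicate 1, with 21.7. These densities are raw. Divided by each library's reads in islands, the ratio became 0.273, since fiber libraries hold more island reads in all.

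**Figure D2:**
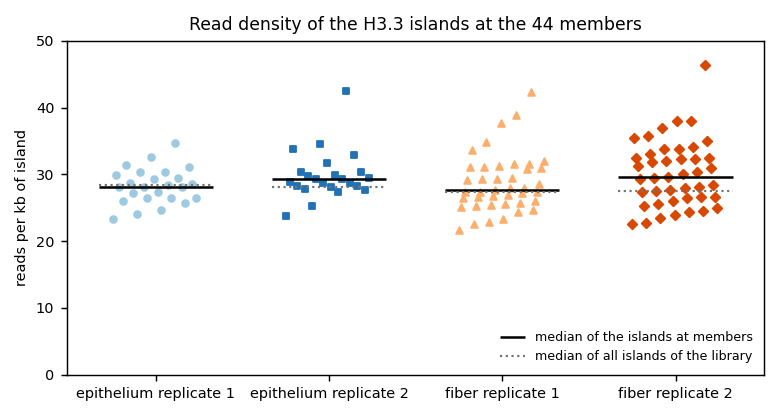
Reads per kb (vertical axis) of every H3.3 island in the window of a member, by library. Solid lines are the medians of the plotted islands, 28.1, 29.2, 27.6 and 29.6, and dotted lines the medians of all islands of each library.

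The start of the gene was inside an island for 10 and 8 of the 44 members in epithelium, against 12.4% and 14.6% of all genes. In fibers it was 17 and 22 members, against 36.3% and 41.5% of genes. The means were 20.5% ± 3.21 and 44.3% ± 8.04 (SD, n = 2), without overlap (exact permutation p = 0.33). With the 10389 islands of most reads per library the direction turned, to 19.3% in epithelium and 14.8% in fibers. With as many islands taken by reads per kb it did not turn, at 19.3% and 20.5%. Coverage along the members was highest at or near the start in every library, with at most 22.7% and 18.2% of members under an island in epithelium and 40.9% and 50% in fibers. At 5 kb before the start these shares were 6.82%, 9.09%, 15.9% and 11.4%.

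**Figure D3:**
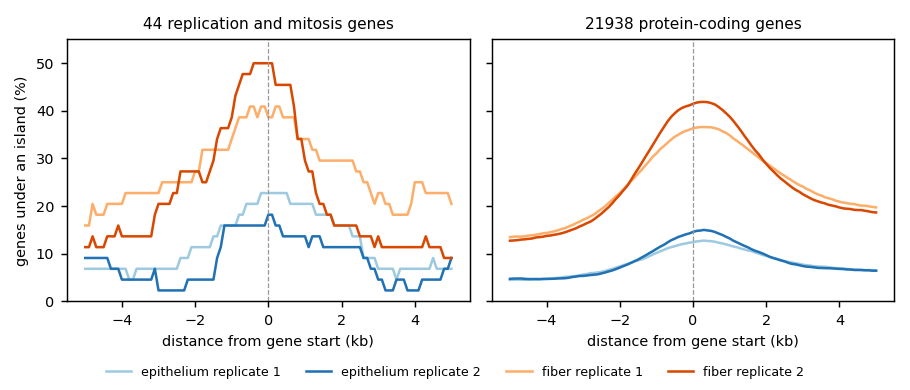
Share of genes under an H3.3 island (%, vertical axes) by distance from the gene start (kb, horizontal axes; negative values lie upstream), for the 44 members (left) and 21938 protein-coding genes (right), 1 line per library. The 4 lines of the members are highest near the start, at 22.7% and 18.2% in epithelium and 40.9% and 50% in fibers.

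Motifs of the cell cycle were looked for in the promoters of the members, since E2F sites are commonly found at S phase genes and CHR elements at mitotic genes. RefSeq promoters on GRCm38.p6, 250 bases before to 50 after the start, matched 38 of the 44 members by symbol. On both strands, TTTCCCGC, TTTGGCGC, TTTCGCGC and TTTGCCGC were counted as E2F sites, TTTGAA and TTCGAA as CHR elements, and CCAAT as the CCAAT box. E2F letters stood in 10 of 38 member promoters, against 2.94% of 16538 promoters of protein-coding genes, among them 7 of 10 licensing genes and 0 of 12 mitosis genes. CHR letters stood in 16 of 38, against 17.3% of all promoters, among them 10 of 12 mitosis genes and 2 of 10 licensing genes. The CCAAT box stood in 27 of 38, against 38.8%. A CCAAT box can overlap an E2F match, as it does in Mcm7.

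Promoters with and without these letters both carried islands. An island reached the promoter of 9 and 6 of the 38 members in epithelium and of 17 and 19 in fibers, or 23.7%, 15.8%, 44.7% and 50%. Over the promoters of all 16538 genes these shares were 13.6%, 16.1%, 38.8% and 44.5%. Of the 10 with E2F letters, 3 and 2 were reached in epithelium and 2 and 4 in fibers, and of the 28 without them 6 and 4, then 15 and 15. Of the 16 with CHR letters, 3 and 3 were reached in epithelium and 7 and 7 in fibers. Of the 22 without CHR letters it was 6 and 3, then 10 and 12. Of the 27 with a CCAAT box, 5 and 2 were reached in epithelium and 9 and 10 in fibers. Of the 11 without a CCAAT box it was 4 and 4, then 8 and 9, a larger part in every library. With 2 libraries a compartment and counts this low, no difference between promoters with and without a motif was tested.

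Among the origin licensing genes, islands were present at 6 and 4 of 11 in the epithelium libraries and at 6 and 8 of 11 in the fiber libraries. Of all protein-coding genes, 27.1% and 31.8% had one in epithelium and 51.7% and 57.6% in fibers. Cdt1, Mcm7, Mcm2 and Cdc6 carried islands in all 4 libraries. Cdt1, at chr8:122568015-122573554, the loader that brings the helicase to origins and is held in check by geminin, was covered over 100% and 70.8% of its window in epithelium and over 100% and 100% in fibers. More of Cdt1 was covered than of 99.2% and 97.2% of genes in the epithelium libraries and of 95.1% and 96.0% in the fiber libraries. Epithelium replicate 1 equalled both fiber libraries here, so the compartments overlapped at Cdt1. The Cdt1 islands had 32.6 and 30.4 reads per kb in epithelium and 38.8 and 35.4 in fibers, and they ran on over Aprt in all 4 libraries.

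Mcm7, a subunit of the helicase at chr5:138164583-138172422, was covered over 85.6% and 75.6% in epithelium and 95.7% and 87.8% in fibers. Its islands were also denser in fibers, with 37.7 and 35.4 reads per kb against 30.8 and 29.8. The compartments did not overlap in either measure. Islands at the start of Mcm7 also lay over Ap4m1, which starts inside the window, and those at its 3′ end over Cops6, in all 4 libraries, so the values at Mcm7 are shared with these neighbours. The RefSeq promoter of Mcm7, whose start lies 539 bases inside the GENCODE gene, lay wholly inside an island in all 4 libraries. It is printed beside that of Mcm5, another helicase subunit, which holds E2F letters in its promoter too and had no island in any library. Capitals mark the E2F, CHR and CCAAT letters, and both run from 250 bases before the RefSeq start to 30 after it, at chr5:138171854-138172133 on the minus strand for Mcm7 and chr8:75109259-75109538 on the plus strand for Mcm5.
Mcm7: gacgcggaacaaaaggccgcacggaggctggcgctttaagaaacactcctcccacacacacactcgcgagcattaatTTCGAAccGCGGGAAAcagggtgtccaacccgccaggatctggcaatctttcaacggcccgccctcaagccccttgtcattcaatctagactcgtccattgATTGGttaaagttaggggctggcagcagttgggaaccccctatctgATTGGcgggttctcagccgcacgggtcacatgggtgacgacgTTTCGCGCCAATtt
Mcm5: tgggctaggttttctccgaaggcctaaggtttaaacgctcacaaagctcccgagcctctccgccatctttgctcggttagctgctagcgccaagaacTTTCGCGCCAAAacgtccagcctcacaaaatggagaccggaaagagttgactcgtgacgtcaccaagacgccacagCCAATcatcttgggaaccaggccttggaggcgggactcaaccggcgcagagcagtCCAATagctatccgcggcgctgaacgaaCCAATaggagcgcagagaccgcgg

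Mcm2, which also binds histones H3 and H4 as a chaperone, had an island over its start in both fiber libraries and in neither epithelium library. The covered share was 21.5% and 13.4% in epithelium and 75% and 28.4% in fibers. Islands at the 3′ end began 12580 and 13980 bp after the start in the epithelium libraries and 13980 bp after it in fiber replicate 2. The fiber islands over the start were 32400 bp long in replicate 1 and 20200 bp in replicate 2, and they also took in the neighbouring gene Tpra1. Cdc6, which clamps the helicase onto the origin, was covered over 35.3% and 37.2% in epithelium and 40.5% and 49.3% in fibers. Its start was outside the islands in all 4 libraries, and islands lay in the gene body or at its end in each. Fiber replicate 2 had a further island upstream of Cdc6, over Wipf2. Orc6, the smallest subunit of the origin recognition complex, had islands in fibers only, over 67.6% and 20.7% of its window. They covered the start of Orc6, beside which Vps35 starts.

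The other licensing genes had few islands. Mcm3 and Mcm5 had none in any library, Mcm4 and Orc1 had 1 each in fiber replicate 2 alone, over 11.6% and 10.7% of the window, and Prkdc starts beside Mcm4. Mcm6 was covered over 10.9% in epithelium replicate 1 and 7.53% in fiber replicate 2. Mcm10, which helps activate the loaded helicase, was covered over 12.0% in epithelium replicate 1 and 12.8% in fiber replicate 1. Of the 75-base stretches in the Mcm10 islands, 14.2% and 13.7% occur elsewhere in the genome, against a median of 1.42% over the members' windows.

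**Figure D4:**
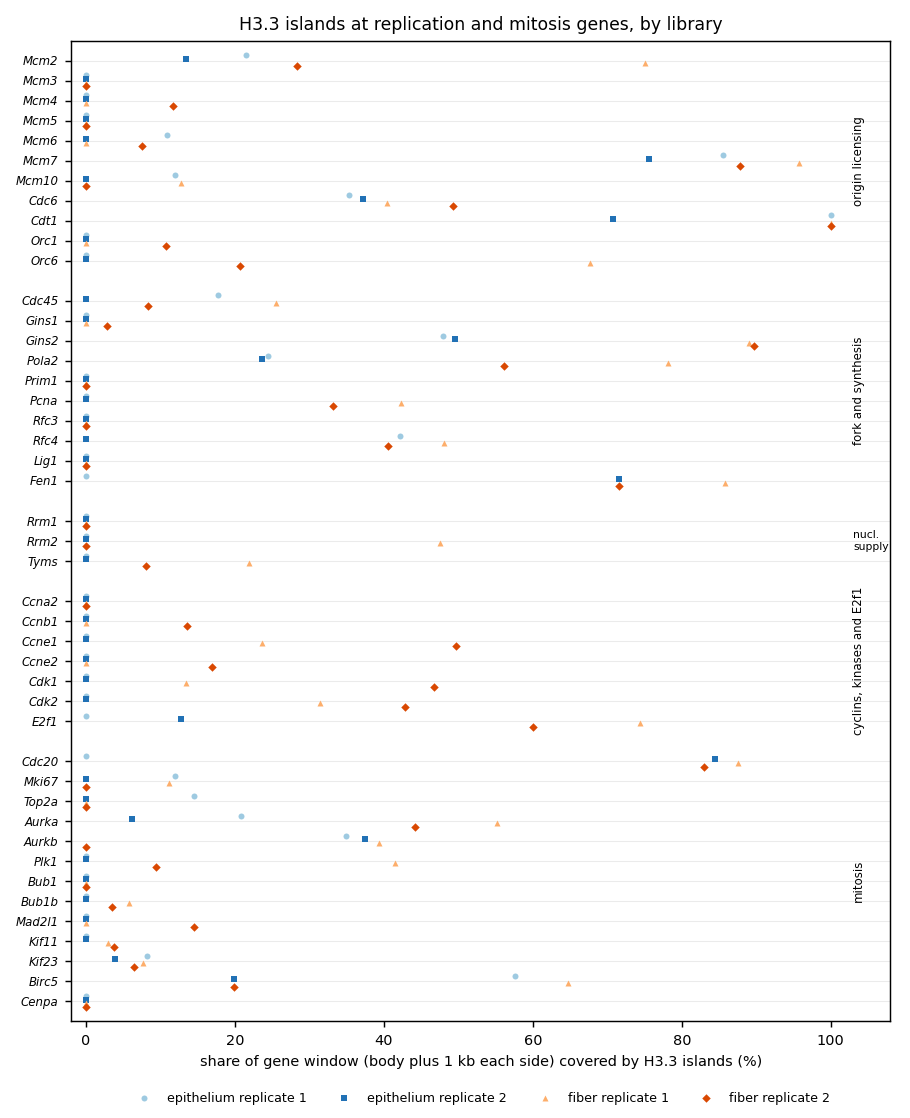
Share of the gene window covered by H3.3 islands (%, horizontal axis) for each of the 44 members, grouped by role, with 1 point per library. Cyclins and kinases lie at 0 in both epithelium libraries except E2f1 in replicate 2, while Cdt1 and Mcm7 lie above 70% in all 4 libraries.

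At the fork, islands were present at 4 and 3 of 10 genes in epithelium and at 6 and 7 of 10 in fibers. The shares of all genes with an island were 27.1% and 31.8%, then 51.7% and 57.6%. Gins2, a subunit of the GINS complex of the active helicase, at chr8:120578633-120589304, had 47.9% and 49.5% of its window covered in epithelium and 89.0% and 89.7% in fibers, with the replicates of each compartment close together. Pola2, the regulatory subunit of DNA polymerase alpha, was covered over 24.4% and 23.6% in epithelium and 78.2% and 56.1% in fibers. Islands lay over the starts of both genes in all 4 libraries, and what differed was how far islands reached through the body and the 3′ end. Gins2 had 29.7 and 30.1 reads per kb in epithelium and 28.1 and 29.9 in fibers, so density was no higher where more was covered. These densities are of whole islands and are shared with neighbours. The longest Gins2 islands of epithelium, 12600 and 9400 bp, lay downstream over Gse1, and the 3′ islands of fibers reached Gse1 too. All islands at Gins2 also lay over Gm20388.

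Pcna, the sliding clamp of the DNA polymerases at chr2:132249162-132253314, had no island in either epithelium library. In fibers 42.3% and 33.1% of its window was covered. The islands over the Pcna start were short, 2600 and 1400 bp, and that of fiber replicate 2 was denser than 99.4% of that library's islands. Pcna also has a larger repeated share than most members, 7.99% of its 75-base stretches.

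Fen1, the flap endonuclease that trims Okazaki fragments, and Rfc4, a subunit of the clamp loader, differed more between the epithelium libraries than between compartments. Fen1 was covered over 0% and 71.6% in epithelium and 85.8% and 71.6% in fibers, and Rfc4 over 42.2% and 0% in epithelium and 48.1% and 40.5% in fibers. Tmem258 starts beside Fen1 and Eif4a2 lies under the Rfc4 islands at its 3′ end. Cdc45, the helicase cofactor, was covered over 17.8% and 0%, then 25.5% and 8.31%. Its start was inside an island in both fiber libraries and in neither epithelium library, beside the start of Ufd1. Gins1 had 1 island, over 2.87% of its window in fiber replicate 2, and Prim1, Rfc3 and Lig1 had none. The nucleotide genes carried islands in fibers only, with Tyms, which makes thymidylate, covered over 21.8% and 8.04%, Rrm2 over 47.6% in replicate 1 alone, and Rrm1 not covered.

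The cyclins, their kinases and E2f1 had islands at 0 and 1 of 7 genes in epithelium and at 4 and 6 of 7 in fibers. These are 0%, 14.3%, 57.1% and 85.7%, against 27.1%, 31.8%, 51.7% and 57.6% of all genes. Islands covered 0% and 1.82% of their windows in epithelium and 20.03% and 34.6% in fibers (exact permutation p = 0.33). Protein-coding genes in the length range of all members, not matched to these 7 alone, had means of 7.34% and 22.2%. E2f1, the transcription factor that drives S phase genes, at chr2:154559407-154569892, had the largest difference of all members. It was covered over 0% and 12.8% in epithelium and 74.4% and 59.96% in fibers, with means of 6.38% ± 9.03 and 67.2% ± 10.2 (SD, n = 2). The epithelium island was at the 3′ end, in a stretch shared with Necab3, whose start lies in the E2f1 window. In fibers that 3′ island was 32800 and 16000 bp long and ran over Necab3 and Actl10. A second fiber island lay near the start, over it in replicate 2 and from 492 bp after it in replicate 1. Fiber replicate 1 had a further island just upstream of the start, with 42.3 reads per kb.

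Ccne1, the cyclin that starts S phase, had an island over its start in both fiber libraries, covering 23.7% and 49.6%, and none in epithelium. Cdk2, its kinase, was covered over 31.5% and 42.8% in fibers and not in epithelium. The fiber islands of Cdk2 lay at the 3′ end over Rab5b, and in replicate 2 also at the start beside Pmel. Cdk1, the kinase of mitosis, was covered over 13.4% and 46.8% in fibers, at the 3′ end of the gene. Its promoter lay outside the islands of all 4 libraries and holds E2F, CHR and CCAAT letters together. It is printed for that reason, with those letters in capitals, from chr10:69352883-69353162 on the minus strand.
Cdk1: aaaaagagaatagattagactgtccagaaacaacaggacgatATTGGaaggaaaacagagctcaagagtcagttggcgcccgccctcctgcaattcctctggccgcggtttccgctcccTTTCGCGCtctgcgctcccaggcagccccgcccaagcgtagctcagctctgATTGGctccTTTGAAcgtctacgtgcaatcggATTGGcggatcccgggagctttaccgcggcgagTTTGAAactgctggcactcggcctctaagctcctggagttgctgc

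Ccnb1 and Ccne2 had islands in fiber replicate 2 alone, over 13.6% and 16.9% of their windows, and Ccna2 had none. The Ccnb1 island lay at the 3′ end and also reached Cenph.

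Among the mitosis genes, islands were present at 6 and 5 of 13 in epithelium and at 9 and 8 of 13 in fibers. The shares of all genes with an island were 27.1% and 31.8%, then 51.7% and 57.6%. Islands covered 7.43% and 4.21% of the mitosis gene windows in epithelium and 12.9% and 7.74% in fibers. Protein-coding genes in the length range of all members, not matched to these 13 alone, had means of 7.34% and 22.2%. Aurka, a spindle pole kinase, had islands at its 3′ end in every library and none over its start. They covered 20.9% and 6.19% in epithelium and 55.1% and 44.1% in fibers and ran on over Fam210b. Aurkb, the kinase of the chromosomal passenger complex, went the other way in part. It was covered over 34.9% and 37.4% in epithelium, 39.3% in fiber replicate 1 and 0% in fiber replicate 2. All 3 islands lay over the Aurkb start. Birc5, or survivin, a partner of Aurkb in the same complex, was covered over 57.6% and 19.9% in epithelium and 64.7% and 19.9% in fibers, so the replicates differed more than the compartments. Kif23, a motor of the central spindle, was covered over 8.12% and 3.94% in epithelium and 7.59% and 6.38% in fibers. An island at its 3′ end, which also lay over Rplp1, was present in all 4 libraries, and epithelium replicate 1 had another over the start.

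Plk1, the polo-like kinase, had islands in fibers only, over the start in both libraries, with 41.5% and 9.34% of the window covered. Bub1b and Kif11, a checkpoint kinase and a spindle motor, were covered in fibers only too, over 5.73% and 3.53% for Bub1b and at most 3.79% for Kif11. Top2a, which untangles sister chromatids, had 2 islands in epithelium replicate 1, over the start and deep in the body, together 14.4% of the window, with 79 and 69 reads. It had none in the other 3 libraries, so its pattern rests on 1 library. Mki67, the proliferation marker, was covered over 11.9% in epithelium replicate 1 and 11.2% in fiber replicate 1. Mad2l1 had an island at its start in fiber replicate 2 alone, and Bub1 and Cenpa had none.

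Cdc20, the activator of the anaphase-promoting complex, was covered over 0% and 84.5% in epithelium and 87.6% and 83.0% in fibers, with islands over the start in 3 of 4 libraries. Its promoter is shown beside that of Top2a, since each had its start covered in a single epithelium library, Top2a in replicate 1 and Cdc20 in replicate 2, and each holds both CCAAT and CHR letters. Capitals mark those letters, and the stretches are chr4:118437314-118437593 for Cdc20 and chr11:99024160-99024439 for Top2a, both on the minus strand.
Cdc20: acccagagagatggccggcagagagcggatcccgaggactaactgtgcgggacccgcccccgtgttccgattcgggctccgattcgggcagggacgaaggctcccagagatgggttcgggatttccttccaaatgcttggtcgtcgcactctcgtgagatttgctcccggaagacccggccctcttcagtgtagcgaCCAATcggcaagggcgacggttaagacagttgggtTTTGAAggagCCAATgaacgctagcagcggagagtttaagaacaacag
Top2a: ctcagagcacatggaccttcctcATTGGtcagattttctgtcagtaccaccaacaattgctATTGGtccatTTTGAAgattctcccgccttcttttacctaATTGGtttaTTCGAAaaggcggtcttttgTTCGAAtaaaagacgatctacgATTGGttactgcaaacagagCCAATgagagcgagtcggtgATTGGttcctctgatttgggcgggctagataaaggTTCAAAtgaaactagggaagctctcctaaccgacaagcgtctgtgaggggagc

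**Figure D5:**
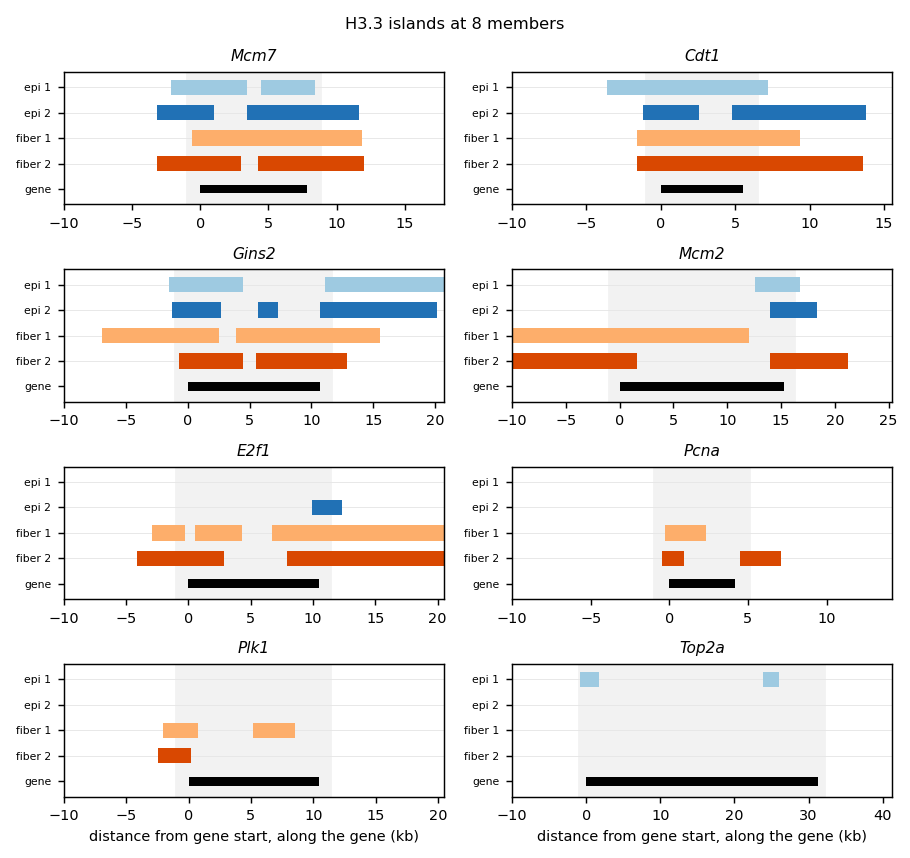
H3.3 islands (coloured bars, 1 row per library) at 8 members, by distance from the gene start along the gene (kb); the black bar is the gene, grey its window, and islands are drawn only to 10 kb beyond the gene. Mcm7, Cdt1 and Gins2 have islands in every row, Pcna and Plk1 only in the fiber rows, and Top2a only in the first epithelium row.

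Other genes of the same pathways, 67 in all, also carried islands in more cases in fibers. Islands were present at 13 and 22 of them in epithelium and at 39 and 47 in fibers, or 19.4%, 32.8%, 58.2% and 70.1%, against 27.1%, 31.8%, 51.7% and 57.6% of all genes. In 28, or 41.8%, the covered share was higher in both fiber libraries, against 40.4% of all genes, and in 1, the centrosome kinase Nek2, it was lower, with 19.1% and 23.2% in epithelium and 14.4% and 15.9% in fibers. Timeless, of the fork protection complex, went from 10.2% and 17.2% to 95.6% and 88.6%, and Foxm1, the transcription factor of G2 and mitosis genes, from 0% and 0% to 47.3% and 39.4%. Pold2, a polymerase delta subunit, was at 0% and 0% in epithelium and at 100% and 71.7% in fibers. Rpa1, the single-strand binding protein, was at 6.14% and 0%, then 44.4% and 38.6%. Tk1, the thymidine kinase, was high throughout, at 72.9%, 54.8%, 68.2% and 78.7%. Of these 67 genes, 16 had no island in any library, among them Pole2, Ttk, Ndc80 and Cenpe.

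Many islands at the members also covered a neighbouring protein-coding gene, 9 of 25 and 13 of 23 in the epithelium libraries and 16 of 41 and 23 of 43 in the fiber libraries. For 11 members another protein-coding gene starts inside the window. In the other 33, an island was present at 13 and 9 in epithelium and at 20 and 20 in fibers, a difference of 27.3 percentage points (exact permutation p = 0.33). Over all protein-coding genes, with or without another start in the window, the difference was 25.2 points. Islands at some of these 33 still lay over a neighbouring gene, as at Mcm2 over Tpra1 and at Gins2 over Gse1.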

How the data were processed

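H3.3 ChIP-seq of lens epithelium and fibers (2 libraries each) was used; the pooled input and the 12 libraries of bisulfite sequencing were not used here. The authors aligned 75-nt single-end reads with BWA to mm10; SICER2 islands were called separately for every library (200 bp windows, gaps up to 600 bp, FDR 0.01 by the file names). The deposited values are raw read counts per island, without normalisation. Library depth is not given in the sources used here, and reads outside islands are unknown, so no count model was fitted and precision rests on the reads per island. An island counted if at least 1 bp lay in the gene window. Covered share, reads per kb of whole islands and gene starts were computed in Python 3.11.15 with numpy 2.4.6, and checked on simulated islands. Compartments were compared by exact two-sided permutation tests over libraries (6 splits). Same-numbered libraries did not deviate together (correlation 0.0777 over members). The members, lists and motifs were chosen with earlier results of these data known. Described singly were members with islands in both epithelium libraries, members covered less in fibers or in epithelium alone, and the 3 per role with the largest difference without overlap; the other values named, of members and of Timeless, Foxm1, Pold2, Rpa1 and Tk1, were chosen after being seen. Alternatives varied the number and density of islands, window, overlap, background, scaling and libraries.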

Additional observations from a re-analysis of the deposited data

How the results depend on the processing

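With 10389 islands from each library taken by read count, the difference in the share of members with an island became 0, that in gene starts −4.55 percentage points, and the numbers of members covered more and less in fibers 5 and 1 (18.8% and 2.75% of all genes). Taken by reads per kb, those numbers became 4 and 4 (13.98% and 4.13% of all genes), and the difference in gene starts was 1.14 percentage points. The number covered less in fibers was 1 with the gene body alone, 1 with islands of at least the median density, and 0 to 4 when 1 library was left out, reaching 4 without epithelium replicate 2 and 1 without fiber replicate 1. The density ratio became 0.273 after division by island reads and 0.996 as a median over members. The difference of the share relative to all genes turned to −0.00496 with the gene body alone, −0.107 with the denser islands, −0.0432 with members without another start in the window, −0.187 and −0.157 with equal islands by reads and by density, and −0.155 without epithelium replicate 2; the cause was not tested. Leaving out 1 library gave 28.4 to 35.2 points for the share, 8.48 to 12.0 for the covered share, 1.001 to 1.06 for the density ratio, 18.2 to 29.5 for gene starts, −0.155 to 0.255 for the relative share and 18 to 24 for the number covered more. The numbers covered more and covered less can only stay or rise when a library is left out, so their ranges do not measure stability. With the replicate block the differences were 31.8, 10.2 and 23.9 points and 0.0499, which pairing of complete pairs cannot change. The density ratio was 1.03, and 2 pairs cannot give p below 0.5. The replicate numbers do not pair the samples by any label, so the block is no check of stability. The remaining 66 values kept their direction, but not always their size. The difference in covered share was 3.54 percentage points with equal islands by reads, and smaller still with equal islands by density. No p could pass 0.05 in this design, so stability here means direction only.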
